A study of Mus musculus with 30 samples.

Results

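The mitochondrial respiratory chain was followed here through 50 nuclear genes that encode subunits of complexes I to IV. The members were taken by gene symbol, with no threshold on a measured value: 29 encode complex I, 4 complex II, 7 complex III and 10 complex IV. All 50 were among the 26253 genes listed, and all 50 passed the filter on low counts in each of the 10 comparisons. Bulk RNA was sequenced from 30 descending thoracic aortas of male C57BL/6J mice, at 5517510 to 8293289 estimated fragments per library. VEDS mice carry a heterozygous missense mutation in Col3a1, the gene for the α1 chain of type III collagen, and model vascular Ehlers-Danlos syndrome; controls were wild-type mice. There were 6 untreated controls, 6 untreated VEDS mice, 6 controls and 6 VEDS mice given hydralazine from birth (32 mg/kg/day in drinking water), 3 VEDS mice given hydralazine and, from day 21, bicalutamide in chow (HB, 50 mg/kg/day) and 3 given hydralazine and, from day 21, spironolactone (HS, 100 mg/kg/day). Hydralazine is a vasodilator, bicalutamide an androgen receptor antagonist, and spironolactone an antagonist of the mineralocorticoid and androgen receptors. The untreated and hydralazine groups each hold 3 mice of day 30 and 3 of day 60, and the labels do not say which library is which. The HB and HS mice were all of day 60. Any comparison of them with an untreated or hydralazine group thus joins treatment to a different mix of ages. Treatment and age cannot be told apart there.

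The chain passes electrons to oxygen and pumps protons across the inner mitochondrial membrane. Complex I oxidises NADH, complex II is the succinate dehydrogenase of the tricarboxylic acid cycle, complex III passes electrons from ubiquinol to cytochrome c, and complex IV reduces oxygen to water. Complexes I, III and IV also hold subunits encoded by mitochondrial DNA, which were not analysed here; complex II does not. Vascular smooth muscle has a modest mitochondrial content, and brown adipocytes, which surround the thoracic aorta as perivascular fat, are packed with mitochondria and carry the uncoupling protein Ucp1. Per the labels the adventitia was stripped from the vessel before RNA extraction, and the study's methods say that perivascular fat was cleaned off.

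The aortic identity of the libraries was clear from smooth muscle genes: Myh11, the smooth muscle myosin heavy chain, lay between 5212 and 10632 CPM (counts scaled to library size) in the 30 libraries, with a median of 8352. Fat transcripts were nevertheless present in every library. Ucp1 ran from 25.3 to 885 CPM and Adipoq, the adipocyte hormone adiponectin, from 18.7 to 97.2 CPM, whereas Zic1, a marker of classical interscapular brown fat, was at 0 in 26 of 30 libraries. Fibroblast transcripts (Dcn, Lum, Pdgfra and Pi16) were present in every library too, at a summed level of 1436 to 2032 CPM. Cardiomyocyte transcripts stood out in 2 libraries, with a summed level of the list of 959 CPM in control hydralazine replicate 5 and 925 CPM in HB replicate 2, against a median of 221 CPM over all libraries. HS replicate 3 was also known from earlier results of these data to stand apart. Hepatocyte transcripts varied most in summed level, from 91.3 to 14671 CPM. In bulk RNA, fewer cells of a type and less RNA per cell cannot be told apart.

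Upstream sequences were examined because the members share a cellular process and could share promoter letters. RefSeq promoter windows on GRCm38.p6, a different build from the mm39 used for the counts, were at hand for 40 of 50 members (41 windows). In the 250 bases before the gene start, the core of the NRF1 site, GCATGCGC, occurred on either strand in 5 of 41 member windows (12.2%) and in 2.26% of all 32851 windows, and the ETS core bound by GABP, CCGGAAG, in 7 (17.1%) and in 6.91%. NRF1 and GABP are textbook regulators of respiratory genes. The short site of the estrogen-related receptors, AAGGTCA, occurred in 1 window, that of Ndufb2 (2.44% against 4.08%), and the YY1 core AAGATGGC in 0 (1.56% of all windows). The NRF1 core was upstream of Cox6a1, Ndufa11, Ndufa6, Ndufa8 and Sdhb, and the ETS core upstream of Cox6a1, Cox6b1, Ndufb6, Ndufb7, Ndufs3, Sdhd and Uqcrh. A letter match is a description and says nothing of binding. Cox6a1, the complex IV subunit with the highest level here, held both motifs, and its upstream bases are shown with the motifs in capitals (chr5:115348959-115349208, minus strand). The NRF1 core is self-overlapping there, read on one strand from 160 to 153 bases and on the other from 162 to 155 bases before the start, and the reverse complement of the ETS core lies 16 to 10 bases before it.
Cox6a1: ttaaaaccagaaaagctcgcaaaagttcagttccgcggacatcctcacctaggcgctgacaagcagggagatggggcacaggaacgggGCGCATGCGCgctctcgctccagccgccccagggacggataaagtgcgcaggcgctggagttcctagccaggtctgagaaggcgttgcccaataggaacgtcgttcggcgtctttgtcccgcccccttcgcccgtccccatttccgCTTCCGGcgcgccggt

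CpG dinucleotides, frequent in the promoters of broadly used genes, numbered 14 in the median member window and 6 in the median of all windows, both over 250 bases. The NRF1 and ETS cores each hold a CpG, and the other 2 motifs hold none. The shares of windows with a motif were not matched for CpG number. CpG counts separated the 2 isoforms of COX subunit 8. Cox8a, the widely expressed form, had 11, whereas Cox8b, the form of heart, skeletal muscle and brown fat, had 1, the fewest of the 41 member windows, followed by Ndufc2 with 4. Their upstream bases are printed because this pair differed most in the expression values that follow, and those of Ndufv3, which had 14, because it was the sole member called by edgeR in any comparison; Ndufv3 was added to the promoters shown after its values were seen. CpG dinucleotides are in capitals. The windows lie at chr7:140900447-140900696 (minus strand) for Cox8b, chr19:7217617-7217866 (minus strand) for Cox8a and chr17:31519865-31520114 (plus strand) for Ndufv3.
Cox8b: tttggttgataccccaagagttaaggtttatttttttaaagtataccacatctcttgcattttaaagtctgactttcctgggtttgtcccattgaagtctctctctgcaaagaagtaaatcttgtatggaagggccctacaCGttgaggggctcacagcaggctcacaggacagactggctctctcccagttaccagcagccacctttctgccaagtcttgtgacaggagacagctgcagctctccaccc
Cox8a: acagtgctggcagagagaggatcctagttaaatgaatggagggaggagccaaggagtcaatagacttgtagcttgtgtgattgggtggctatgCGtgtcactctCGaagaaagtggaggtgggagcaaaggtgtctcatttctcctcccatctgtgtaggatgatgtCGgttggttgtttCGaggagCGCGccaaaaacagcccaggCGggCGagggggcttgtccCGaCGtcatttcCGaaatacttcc
Ndufv3: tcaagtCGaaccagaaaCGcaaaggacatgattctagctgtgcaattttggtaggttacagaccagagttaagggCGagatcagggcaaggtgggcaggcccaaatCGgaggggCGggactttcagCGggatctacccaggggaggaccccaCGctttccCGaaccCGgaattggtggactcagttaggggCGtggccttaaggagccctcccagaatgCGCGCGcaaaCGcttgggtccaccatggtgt

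Transcript levels were compared between genes as TPM, which is scaled for gene length and depth. The median member stood at 49.96 TPM over 30 libraries. Complex IV subunits were the most abundant, with a median of 208 TPM, and 5 of them were the 5 highest members: Cox6a1 (258 TPM, range over libraries 178 to 443), Cox4i1 (234), Cox7c (228), Cox6b1 (227) and Cox8a (210). Cox4i1 encodes the regulatory subunit that contacts the catalytic core of the oxidase. Cox7c is uncertain, since its estimated count was not whole in any library, which means that reads were split with other genes, whereas the other 49 members had whole counts in all 30.

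Complexes I, II and III lay lower, with median members of 44.5, 52.3 and 45.2 TPM. Within complex I the levels spread from 8.97 TPM for Ndufa11 to 135 TPM for Ndufa3, both accessory subunits of its membrane arm. In CPM, which is not scaled for length, their medians were near each other, at 34.5 and 32.2. The gap between these genes in TPM thus rests on the lengths used for scaling. The other members among the 5 lowest were Uqcrq (16.3 TPM), Ndufs4 (17.4 TPM), Ndufb2 (25.3 TPM) and Ndufs1 (27.0 TPM). Ndufs1 carries iron-sulfur clusters of the NADH-oxidising arm and Ndufs4 stabilises that arm. Complex III ran from Uqcrq to Uqcrh, the hinge protein (195 TPM), with the catalytic subunits Cyc1, cytochrome c1, at 29.6 TPM and Uqcrfs1, the Rieske iron-sulfur protein, at 37.6 TPM. The 4 succinate dehydrogenase subunits were the most even, from 46.5 TPM (Sdha, the flavoprotein) to 60.0 TPM (Sdhb, the iron-sulfur subunit). The isoform Cox8b had the widest range of any member, from 17.4 to 337 TPM.

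**Figure D1:**
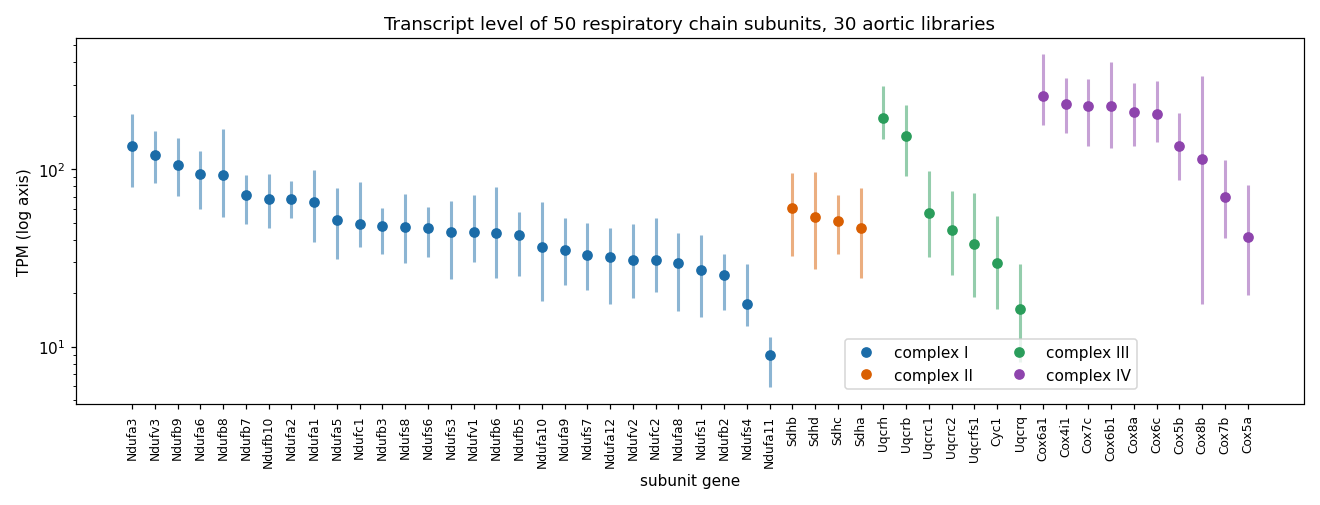
Level of each of the 50 subunits in TPM on a log axis, ordered within complexes; points are medians and bars the range over 30 libraries. Complex IV members hold the highest medians, up to 258 TPM for Cox6a1, and Cox8b has the longest bar.

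The complexes kept their proportions in every library. Of the summed TPM of the 50 members, complex I took 36.0 to 40.9%, complex II 4.45 to 5.88%, complex III 12.8 to 13.9% and complex IV 40.7 to 45.1%, while the sum itself ranged from 2631 to 6320 TPM. Complex I and complex IV sums on the log2 scale had r = 0.99 (Spearman 0.97, n = 30 libraries), and r = 0.98 after removal of the group means. The ratio of complex IV to complex I was 1.15 ± 0.07 (SD, n = 6) in untreated VEDS, 1.10 ± 0.07 (n = 6) in untreated controls, 1.04 ± 0.02 (n = 3) in HB and 1.07 ± 0.07 (n = 3) in HS. These group ranges overlapped, except that the highest HB library (1.056) only just passed the lowest untreated VEDS library (1.055). These correlations rest on libraries that share their depth scaling and are given as descriptions.

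Individual subunits differed widely in how much they moved among libraries. The SD of log2(CPM + 1) over 30 libraries was 0.91 for Cox8b, 0.45 for Cox5a and 0.43 for Uqcrfs1, and 0.11 for Ndufa11, 0.12 for Ndufa2 and 0.13 for Sdhc, the membrane anchor of complex II. The median member had an SD of 0.24, and the median of 13534 genes with a mean of at least 1 CPM was 0.21. The core subunits of complex I had a median SD of 0.25 and its accessory subunits one of 0.21. The medians for complexes II and III were 0.33 and 0.31.

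This variation ran with Ucp1. The correlation of log2(CPM + 1) with Ucp1 over the 30 libraries was above 0.8 for 29 of 50 members and for 1.76% of the 13534 genes. The median r was 0.83 for the members and -0.03 for all those genes, and 0.78 for the members after group means were removed, so that most of the relation was present among mice of a group. The untreated and hydralazine groups pool 2 ages, so values with group means removed still hold any difference by age. By complex the median r was 0.75 for I, 0.92 for II, 0.91 for III and 0.88 for IV. Cox8b had the highest value (r = 0.95, Spearman 0.91, and 0.92 without the 2 libraries farthest from the median Ucp1 level), followed by Uqcrc1 (0.94), a core protein of complex III, and Cox6b1 (0.93). The lowest were Ndufa6 (0.34), Ndufb3 (0.41) and Ndufa11 (0.42). Against a score over the brown adipocyte list the 3 highest were Ndufs1 (0.91), Cox8b (0.91) and Sdha (0.91) and the 3 lowest Ndufa6 (0.35), Ndufa11 (0.38) and Ndufb7 (0.45). That score is imperfect in this tissue, since Dio2 and Prdm16, both in the list, were present at no less than 65.1 and 51.1 CPM in any library while Ucp1 spanned 25.3 to 885 CPM. Each value is over 30 libraries, which share depth scaling, and is a description.

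**Figure D2:**
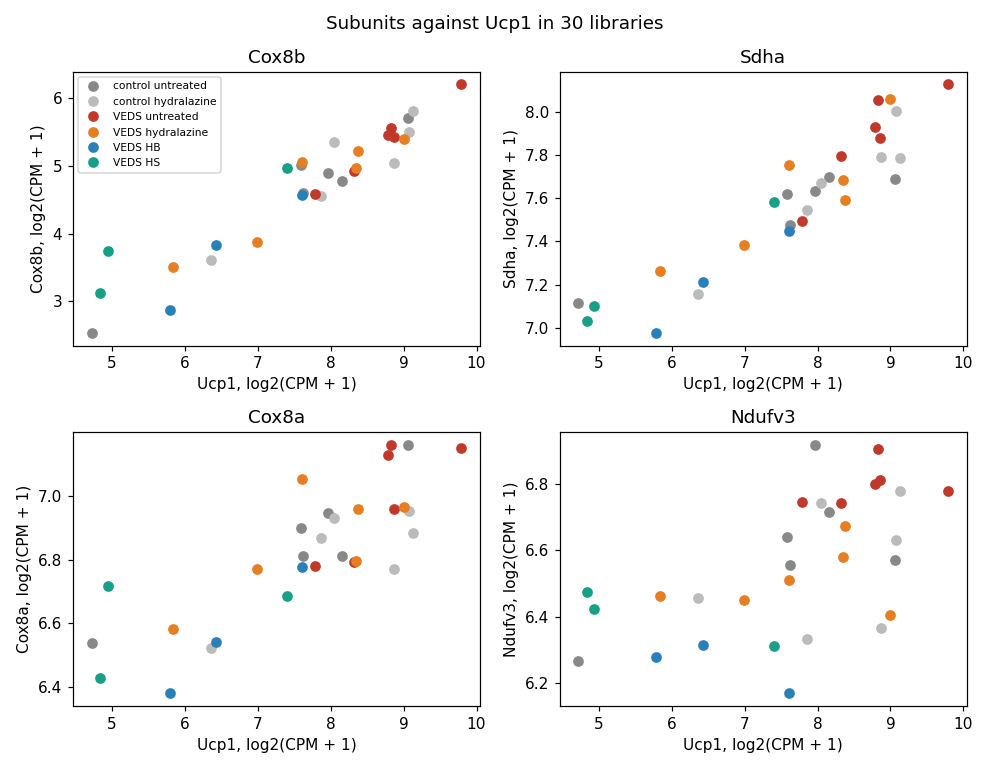
Cox8b, Sdha, Cox8a and Ndufv3 against Ucp1, all in log2(CPM + 1), 1 point per library coloured by group. Cox8b (r = 0.95) and Sdha (r = 0.93) rise along a line, Cox8a (r = 0.82) more loosely, and Ndufv3 (r = 0.57) scatters.

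The isoform balance of COX subunit 8 moved with the same transcript. Cox8b made up 31.1% ± 11.2 of the summed TPM of Cox8a and Cox8b in untreated controls (SD, n = 6), 40.5% ± 7.0 in untreated VEDS, 37.2% ± 10.6 in hydralazine controls, 31.8% ± 9.5 in hydralazine VEDS (each n = 6), 22.8% ± 8.5 in HB and 25.1% ± 12.0 in HS (each n = 3). Single libraries ran from 10.1%, in an untreated control with the lowest Ucp1 level of all 30 (25.3 CPM), to 52.3%, in an untreated VEDS library with the highest (885 CPM). The log2 share had r = 0.94 with log2 Ucp1 (n = 30), and 0.96 with group means removed. All neighbouring groups in this order overlapped, but HB (highest 30.9%) lay just below untreated VEDS (lowest 31.0%).

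In untreated aortas all 50 members had a higher fitted level in VEDS than in control mice, although no single member passed the test. The median member log2 fold change was 0.18, with 0.17 in complex I, 0.24 in II, 0.24 in III and 0.20 in IV, against 0.00 over the 12976 genes tested, of which 51.2% were higher. By edgeR's quasi-likelihood test 0 members had a Benjamini-Hochberg adjusted p of 0.05 or less, in a comparison that called 0.0% of all genes. DESeq2 also called 0 members and 0.0% of genes. At an unadjusted p under 0.05 there were 9 members, or 18.0%, against 3.04% of all genes. No member separated the 2 groups completely (0.133% of genes were higher in every VEDS library than in every control).

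The members with the smallest p were Ndufb3, a small membrane-arm subunit of complex I (log2 fold change 0.21 ± 0.07, SE), Ndufs7, which holds the last iron-sulfur cluster before ubiquinone (0.31 ± 0.10), Sdha (0.34 ± 0.12), Ndufv1, the NADH-binding flavoprotein (0.31 ± 0.12), and Ndufb8 (0.33 ± 0.13), all with an adjusted p of 1.00 in edgeR. Sdha lay at 137, 197 and 207 CPM (lowest, median and highest of 6) in untreated controls and at 179.5, 239 and 279 CPM in untreated VEDS, so the upper VEDS libraries exceeded every control. Cox8b had the largest fold change, 0.63 ± 0.40, with 4.78, 27.5 and 50.95 CPM in controls and 22.9, 42.5 and 72.6 CPM in VEDS. The other representatives were Ndufs1 (0.21), Ndufv3 (0.17), Sdhb (0.26), Uqcrc1 (0.32), Uqcrfs1 (0.29), Cyc1 (0.31), Cox4i1 (0.16), Cox5a (0.33) and Cox8a (0.13).

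Fat transcripts differed in the same direction. Ucp1 was at 25.3, 222 and 532.4 CPM in untreated controls and 219, 446.3 and 885 CPM in untreated VEDS (log2 fold change 0.91 ± 0.51). The summed brown adipocyte list spanned 269 to 898 CPM in controls and 555 to 1303 CPM in VEDS, with 6 of its 7 tested genes higher, and 7 of 9 tested adipocyte genes were higher. With the brown adipocyte score as a covariate the median member fold change was -0.02, and with an adipocyte score -0.04. The part of fat transcripts in the difference between genotypes was not tested further.

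Under hydralazine the genotypes no longer showed that one-sided pattern. Of 50 members, 17 had a higher level in VEDS and the median log2 fold change was -0.02. edgeR called 0 members (0.0% of genes), DESeq2 called 0 (0.00771% of genes), and 0 had an unadjusted p under 0.05 (4.64% of genes). Ndufb3 had the smallest p (-0.12 ± 0.09), and Cox8b was at -0.32 ± 0.38.

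Hydralazine in VEDS mice was accompanied by lower fitted levels of 49 of 50 members, with a median log2 fold change of -0.19 against 0.01 over all genes tested. The complex medians were -0.15 for I, -0.24 for II, -0.18 for III and -0.21 for IV. edgeR called 0 members and 0.0% of genes. DESeq2 called 1 member, Ndufv3, and 0.0154% of genes. At an unadjusted p under 0.05 there were 9 members, against 4.53% of genes. Ndufv3, an accessory subunit of the NADH-binding module of complex I, was at 106.1, 109.7 and 119 CPM (lowest, median and highest of 6) in untreated VEDS and at 83.8, 88.7 and 101.0 CPM in hydralazine VEDS. The groups did not overlap, which was true of no other member and, in this direction, of 0.133% of genes. Its log2 fold change was -0.27 ± 0.05, with an adjusted p of 1.00 in edgeR and 0.0228 in DESeq2.

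Ndufa5, Ndufb3, Uqcrh and Cox7c had the next smallest p in that comparison; Ndufb3 was at -0.19 ± 0.07. Among the representatives Ndufs1 was at -0.27, Ndufv1 at -0.21, Sdha at -0.24, Sdhb at -0.25, Uqcrc1 at -0.18, Uqcrfs1 at -0.17, Cyc1 at -0.23, Cox4i1 at -0.13, Cox5a at -0.23, Cox8a at -0.13 and Cox8b at -0.62 ± 0.34. Ucp1 had a log2 fold change of -0.83 ± 0.46, and all 7 tested brown adipocyte genes were lower. With the brown adipocyte score as covariate the median member fold change was 0.02, whereas Ndufv3 kept its size. Single libraries moved several values by over 1.5 times: with 1 library left out at a time the median ran from -0.23 to -0.12, Uqcrfs1 from -0.33 to -0.05, Cyc1 from -0.37 to -0.12 and Uqcrc1 from -0.30 to -0.10. Each of these was closest to 0 without hydralazine VEDS replicate 2 and lowest without hydralazine VEDS replicate 4.

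In control mice hydralazine left the members near their untreated levels. The median log2 fold change was 0.03 and 30 of 50 were higher. edgeR called 0 members (0.0% of genes), DESeq2 called 0 (0.0849% of genes), and 0 had an unadjusted p under 0.05 (9.5% of genes). Cox8b was again the most distant, at 0.32. The difference of the hydralazine effect between genotypes, tested as an interaction, had a median of -0.22 over the members with 47 of 50 below 0, but 0 members passed in edgeR (0.0% of genes) and 0 in DESeq2 (0.0% of genes), and 4 had an unadjusted p under 0.05, against 3.28% of genes. Those with the smallest p were Ndufb3 (-0.33 ± 0.11), Cox4i1 (-0.25 ± 0.11), Ndufs7 (-0.34 ± 0.16), Sdhc and Sdha (-0.38 ± 0.20). With the brown adipocyte and adipocyte scores as covariates the median interaction was 0.04 and 0.05. A different hydralazine effect in the 2 genotypes was therefore not shown for any member.

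The largest differences were those of the 2 combined treatments against untreated VEDS, which share the same 6 untreated libraries and so are not independent of each other. All 50 members were lower in HB, with a median log2 fold change of -0.47 against -0.02 over 13204 genes, of which 47.2% were higher. Complex II and complex III members had the lowest medians (-0.63 and -0.60), followed by complex IV (-0.52) and complex I (-0.43). All 50 were also lower in HS, with a median of -0.44 against -0.01 over 13276 genes and complex medians of -0.66 for II, -0.67 for III, -0.47 for IV and -0.41 for I. Within complex I the 6 core subunits had medians of -0.48 in HB and -0.53 in HS, and the 23 accessory subunits -0.39 and -0.38. The mean log2(CPM + 1) over the members was 6.07 ± 0.17 (SD, n = 6) in untreated VEDS, 5.61 ± 0.18 (n = 3) in HB and 5.60 ± 0.14 (n = 3) in HS.

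**Figure D3:**
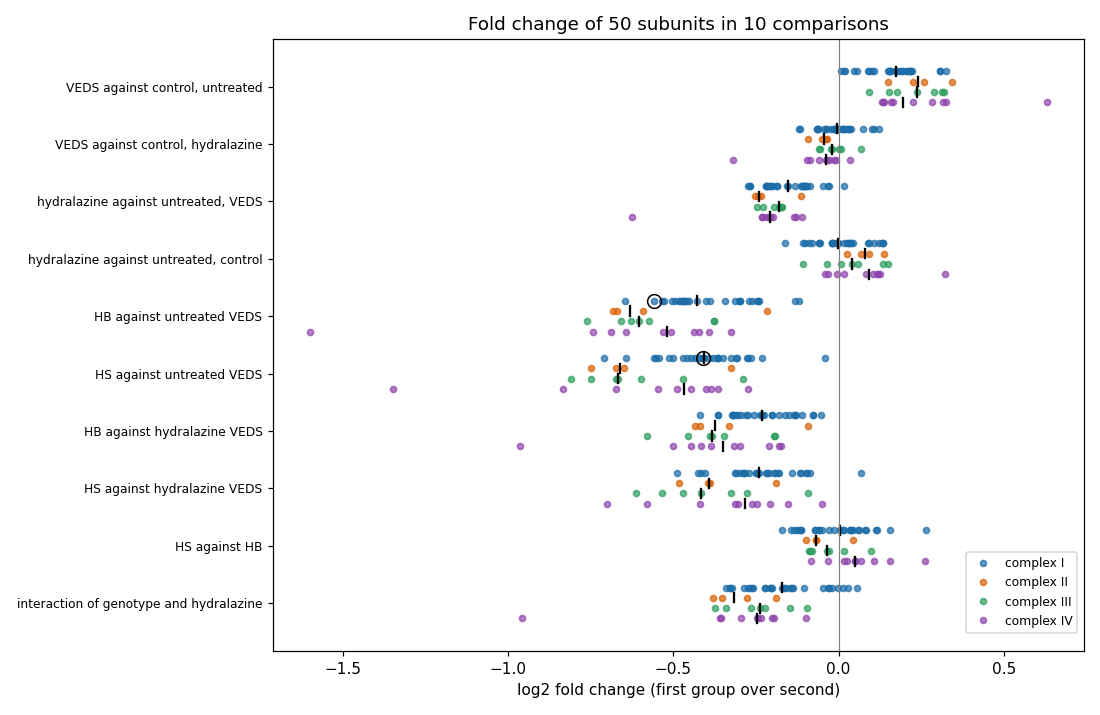
Log2 fold change of each subunit in the 10 comparisons, 1 point per gene in 4 rows by complex, with a black tick at each complex median. The circled point, Ndufv3 in HB and HS against untreated VEDS, is the sole member past an adjusted p of 0.05 in edgeR; all 50 points lie above 0 in untreated VEDS against control and below 0 in the HB and HS comparisons with untreated VEDS.

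Ndufv3 was the sole member called by edgeR in either comparison, and it fell in both. It was at 70.9, 76.5 and 78.6 CPM in the 3 HB libraries and at 78.4, 84.7 and 87.9 CPM in the 3 HS libraries, against no less than 106.1 CPM in untreated VEDS. Every HB and HS library was below every untreated VEDS library. The log2 fold change was -0.56 ± 0.06 in HB (adjusted p = 0.0115) and -0.41 ± 0.07 in HS (adjusted p = 0.044). Calls in the lower direction covered 0.197% of all genes in HB and 0.256% in HS. Untreated controls, however, spread from 75.9 to 120 CPM and hydralazine controls from 79.6 to 109 CPM, across the range of treated and untreated VEDS libraries alike.

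How many members were called depended on the tool. DESeq2 called 27 members lower in HB, among 2.17% of genes, and 24 lower in HS, among 1.51%. In HB these were 11 of 29 in complex I, 3 of 4 in II, 5 of 7 in III and 8 of 10 in IV; in HS they were 10, 3, 6 and 5. At an unadjusted p under 0.05 in edgeR there were 45 members in HB (7.95% of genes, lower) and 47 in HS (6.35%, lower). Every library of the treated group was below every untreated VEDS library for 22 members in HB (3.72% of genes) and 27 in HS (2.99%).

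Single libraries also decided the edgeR count. Without untreated VEDS replicate 1, which had the lowest member mean of its group, edgeR called 23 members in HB and 11 in HS, all lower, in fits that called 1.92% and 0.651% of all genes lower. Without HB replicate 1 or HB replicate 2 it called 0 in HB. In HS it called 0 when any 1 of the other 8 libraries was left out, untreated VEDS replicates 2 to 6 or HS replicates 1 to 3. Without HB replicate 2 and HS replicate 3, the libraries known to stand apart, the medians were -0.57 in HB and -0.45 in HS, with 0 members called in either.

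Complex I representatives followed the median. Ndufs1 was at 77.6, 86.3 and 106 CPM in HB and 78.6, 79.2 and 105 CPM in HS, against 103, 127 and 145 CPM (lowest, median, highest) in untreated VEDS. 1 library of each treated group thus reached into the untreated range. Its log2 fold change was -0.50 ± 0.13 in HB and -0.54 ± 0.14 in HS (adjusted p = 0.112 and 0.17). Ndufv1 was at -0.54 ± 0.13 and -0.51 ± 0.14. Ndufb8 had the second smallest p in HS (-0.71 ± 0.13, adjusted p = 0.0718), with 54.5, 63.6 and 67.0 CPM against no less than 81.2 CPM in untreated VEDS, so these groups did not overlap; Ndufa5 and Ndufs3 came next in HS, and Ndufb5 was the fifth in HB.

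In complex II, Sdha was at 125, 147 and 174 CPM in HB and 130, 136 and 191 CPM in HS, against 179.5 to 279 CPM in untreated VEDS. HB stayed below the untreated range and HS reached into it with 1 library. The log2 fold changes were -0.68 ± 0.15 (adjusted p = 0.076) and -0.65 ± 0.16 (adjusted p = 0.165). Sdhb was at -0.59 ± 0.14 in HB and -0.67 ± 0.14 in HS.

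In complex III, Uqcrfs1 had the lowest fold change of its complex in both comparisons, -0.76 ± 0.22 in HB and -0.81 ± 0.20 in HS. It was at 37.9, 44.7 and 63.9 CPM in HB and 39.8, 46.6 and 55.6 CPM in HS, against 55.9 to 109 CPM in untreated VEDS; HS lay below that range and HB overlapped it. Uqcrc1 was at -0.57 ± 0.14 in HB and -0.68 ± 0.14 in HS, and Cyc1 at -0.63 ± 0.17 and -0.67 ± 0.19. Uqcrh had the third smallest p in HB.

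Complex IV held both the smallest and the largest shifts among the representatives. The abundant Cox4i1 was at -0.32 ± 0.09 in HB and -0.37 ± 0.09 in HS. Cox6b1, which lies between the monomers of the oxidase dimer, was the second in HB and the fifth in HS by p, with 66.9, 75.5 and 83.7 CPM in HB and 71.3, 73.3 and 84.2 CPM in HS, all below the lowest untreated VEDS library (93.0 CPM). Cox5a was at -0.74 ± 0.26 and -0.84 ± 0.24, and Cox8a at -0.44 ± 0.12 and -0.40 ± 0.12. Cox8b had the lowest fold change of all 50, -1.60 ± 0.43 in HB and -1.35 ± 0.46 in HS (adjusted p = 0.117 and 0.299). Its libraries were at 6.29, 13.2 and 22.8 CPM in HB and 7.74, 12.4 and 30.2 CPM in HS against 22.9 to 72.6 CPM in untreated VEDS, so HB stayed just below the lowest untreated library and HS overlapped.

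**Figure D4:**
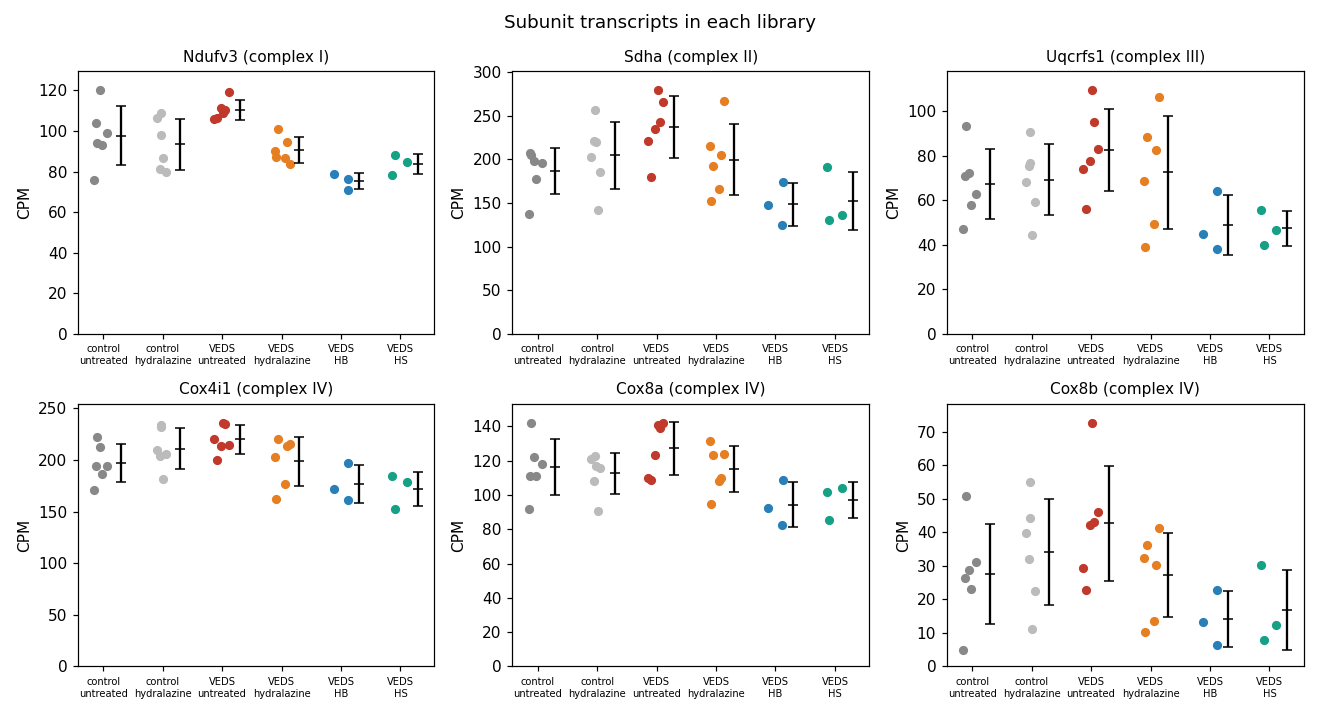
CPM of 6 subunits in every library by group, each panel from 0; bars are means ± SD (n = 6, or 3 in HB and HS). Ndufv3 in untreated VEDS lies at 106.1 to 119 CPM, above every treated VEDS library, but spans 75.9 to 120 CPM in untreated controls. By the SD of log2(CPM + 1) within groups, Cox8b spreads most (0.84), and Cox4i1 (0.14) no more than Ndufv3 (0.15).

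Fat transcripts were lower alongside the members. Ucp1 was at 54.3, 84.7 and 193.5 CPM in HB and 27.6, 29.7 and 168 CPM in HS, all below the lowest untreated VEDS library (219 CPM), with log2 fold changes of -2.07 ± 0.50 (adjusted p = 0.0958) and -2.63 ± 0.68 (adjusted p = 0.171). The summed brown adipocyte list was at 335.5 to 546 CPM in HB and 287 to 524 CPM in HS, against 555 to 1303 CPM in untreated VEDS, with 5 of 7 tested genes lower in HB and 6 of 7 in HS. Of 10 adipocyte genes, 9 were lower in HB and 6 in HS. With the brown adipocyte score as a covariate the median member fold change was 0.01 in HB and -0.21 in HS, with 0 members called in either. With the adipocyte score it was -0.20 and -0.38, also with 0 called. Ndufv3 kept its size with the brown adipocyte score, at -0.61 in HB and -0.48 in HS, but was no longer called. That score did not overlap between the groups. It was at most 4.78 in HB and 4.89 in HS, and at least 4.93 in untreated VEDS. Fits with this score thus extend a slope beyond shared values and cannot set the part of the score apart from that of the group. The 6 tested cardiomyocyte genes were all higher in HB. The list summed to 254, 288 and, in HB replicate 2, 925 CPM, against 145 to 253 CPM in untreated VEDS. All 6 hepatocyte genes were lower in both HB and HS. The 6 smooth muscle genes were all higher in HB (median log2 fold change 0.25, with 0 called by either tool and 1 at an unadjusted p under 0.05), where the list summed to 25073 to 27771 CPM against 16988 to 29543 CPM in untreated VEDS, and 2 of 6 were higher in HS (median -0.04). Over all 30 libraries 49 of 50 members had a negative r with Myh11, with a median of -0.59 against 0.03 over 13533 genes, and the lowest values were those of Uqcrq (-0.80) and Cox7b (-0.76). The part of these other transcripts in the members' values was not tested beyond the covariate fits.

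Across the 50 members, those that followed Ucp1 most closely among mice of a group, and those that varied most there, had the lowest fold changes. The Spearman correlation between a member's within-group r with Ucp1 and its log2 fold change was -0.82 in HB and -0.84 in HS against untreated VEDS (n = 50 genes), and 0.57 in untreated VEDS against control. A member's within-group SD, which does not involve Ucp1, gave Spearman values of like size, -0.85 in HB, -0.84 in HS and 0.54 in untreated VEDS against control. Genes of one set of libraries are not independent replicates, and the r values use some of the same libraries, so these are descriptions. Ndufv3 stood off the trend in HB, with a within-group r of 0.34 and a fold change of -0.56. Genes with a like r in HB were Ndufb7 (r = 0.31, -0.13), Ndufa2 (r = 0.34, -0.26) and Ndufb2 (r = 0.35, -0.27).

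**Figure D5:**
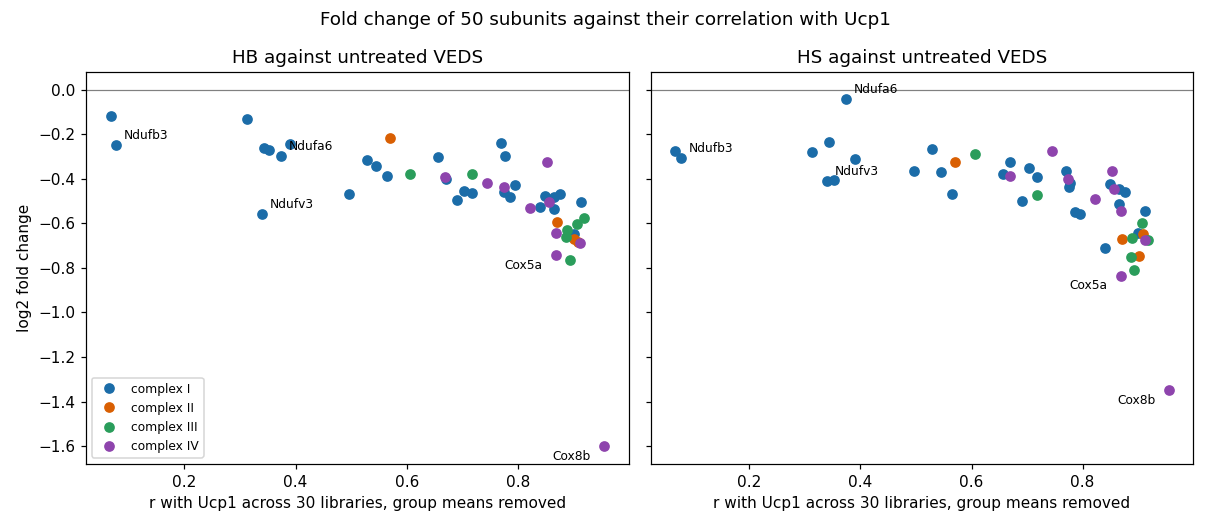
Log2 fold change of the 50 subunits in HB (left) and HS (right) against untreated VEDS, by the correlation of each subunit with Ucp1 over 30 libraries after group means were removed. Fold changes become more negative toward the right (Spearman -0.82 and -0.84, against -0.85 and -0.84 for the within-group SD of each subunit), Cox8b is the lowest point, and Ndufv3 lies below genes of similar r in HB.

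Set against hydralazine alone, the combined treatments again had lower fitted member levels, with smaller values. In HB the median was -0.29 with all 50 lower, and in HS it was -0.27 with 49 lower. edgeR called 0 members in HB (0.0151% of genes) and 0 in HS (0.0% of genes), and DESeq2 also called 0 in each (4.33% and 0.406% of genes). At an unadjusted p under 0.05 there were 14 members in each, against 15.5% of genes in HB and 13.6% in HS, so 28.0% of members stood against that background. Ndufv3 had the smallest p in HB (-0.27 ± 0.07, adjusted p = 0.13), followed by Cox6b1 (-0.45 ± 0.14), Ndufs4, Ndufs3 and Cox8a. In HS they were Ndufs3, Ndufb8, Ndufa8, Cox6b1 and Ndufa11. Groups did not overlap for 2 members in HB, Ndufs4 and Ndufv3 (4.57% of genes, lower), and for 5 in HS, Ndufa8, Ndufa11, Ndufb8, Ndufs3 and Uqcrb (2.73%). In HB the share of members without overlap was thus not above that of all genes.

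Other cell types differed in these comparisons too. In HB against hydralazine VEDS, 5 of 7 brown adipocyte genes were lower (median log2 fold change -0.75, 0 called by edgeR and 2 by DESeq2), as were 8 of 10 adipocyte genes (-0.57). All 6 hepatocyte genes were lower (-2.70, 0 called by edgeR and 6 by DESeq2), all 6 cardiomyocyte genes were higher (3.45, 0 and 5 called) and all 6 smooth muscle genes were higher (0.25, 0 and 1 called). The cardiomyocyte list summed to 925 CPM in HB replicate 2 and to 254 and 288 CPM in the other HB libraries. In hydralazine VEDS it summed to 147 to 253 CPM. In HS, 5 of 7 brown adipocyte genes (-0.55) and all 6 hepatocyte genes (-2.25) were lower, with 0 called by either tool. The adipocyte list went the other way in HS, with 6 of 10 genes higher (0.12, 0 called by either tool). With the brown adipocyte score as a covariate the median member fold change was -0.05 in HB and -0.07 in HS, and with the adipocyte score -0.16 and -0.28. The part of these transcripts in the members' values was not tested beyond the covariate fits.

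The 2 combined treatments were not told apart by any member. HS against HB had a median log2 fold change of 0.01 with 26 of 50 higher, and the members lay between -0.17 and 0.27. edgeR called 0 members (0.0% of genes), DESeq2 0 (0.273% of genes), and 0 had an unadjusted p under 0.05 (6.68% of genes). With 3 libraries a group, this does not show that the treatments act alike. Ndufv3 had the smallest p, with 70.9 to 78.6 CPM in HB and 78.4 to 87.9 CPM in HS, which overlapped at their edges. Bicalutamide and spironolactone were given at different doses, so their values stand side by side.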

How the data were processed

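Total RNA from aortas was sequenced from stranded libraries by the study. Per the submitters' processing notes, CASAVA 1.8.4 handled the base calls and RSEM, with the mm39 build, gave the values per gene. The authors deposited, per library, expected counts per gene (not normalised), TPM values and FPKM values, both scaled by the authors for length and depth. Expected counts were rounded to whole numbers; 97.6% of the deposited values were whole within 1e-06. CPM used TMM factors over 30 libraries. Each of 10 comparisons was fitted with edgeR 4.0.16 (R 4.3.3; quasi-likelihood F test, TMM, filterByExpr, groups compared only), and p-values were adjusted by Benjamini-Hochberg over all genes tested, with calls at 0.05 or less. SE is the fold change divided by the root of F. Correlations used log2(CPM + 1). Alternatives were DESeq2 1.42.0, RLE factors, other filters, all 30 libraries in one fit, covariates for fat scores, and each library left out. Fits were tested on simulated data. The members, gene lists and libraries set apart were chosen with earlier results of these data known. Genes named in a comparison are the members called or, under 3, the 5 with the smallest p, plus 12 representatives. Libraries of a group were treated as replicates; where they do not come from separate mice, p-values measure only the spread between libraries. Ages and extraction batches are not labelled per library. The 13 mitochondrially encoded subunits were not analysed here. FPKM served only as an alternative to TPM in ranking. The lowest estimated count of a member in any library was 34, for Cox8b.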

Additional observations from a re-analysis of the deposited data

Results flagged for a closer look

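Untreated control replicate 3 stood far from the other 5 untreated controls in the Cox8b share of summed Cox8a and Cox8b TPM, at 10.1% against 30.9 to 43.3%. Its gap was 0.626 of the group's whole range. The same library had the lowest Ucp1 level of all 30, 25.3 CPM, and 4.78 CPM of Cox8b. Of 72 groups of values examined this was the sole flag, and chance flags about 1 in 20.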

How the results depend on the processing

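In HB and HS against untreated VEDS, median fold changes kept their direction under every scaling and filter tried. Medians near 0 changed sign when 1 library was left out. They ran from -0.09 to 0.04 in VEDS against control under hydralazine, and from -0.03 to 0.09 with hydralazine in controls. In HS against HB they ran from -0.10 to 0.11. The number of members called depended on the processing. DESeq2 called 1 in hydralazine against untreated VEDS, 27 in HB and 24 in HS against untreated VEDS, where edgeR called 0, 1 and 1. In HS the count was 0 with no filter on low counts and 3 with all 30 libraries in the fit. In both HB and HS it was 0 with the brown adipocyte score, with the adipocyte score and without the 3 libraries that stand apart. Leaving out 1 library at a time gave 0 to 23 in HB and 0 to 11 in HS, and 0 in the other 8 comparisons. The Cox8b share in untreated VEDS was 24.3% from counts in place of 40.5% from TPM, since the count share is not corrected for length.

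Covariates turned several directions. With the brown adipocyte score, the HB median was 0.0138. In untreated VEDS against control that score gave -0.0200 for Ndufs1, -0.0117 for Sdhb, -0.0477 for Uqcrfs1, -0.0123 for Cyc1, -0.1316 for Cox5a, -0.0604 for Cox8a and -0.2943 for Cox8b. The adipocyte score gave -0.0483, -0.0347, -0.0979, -0.0549, -0.1640, -0.0944 and -0.4608 for the same genes in that order. In hydralazine against untreated VEDS the brown score gave 0.0710 for Ndufv1, 0.0550 for Sdha, 0.0741 for Sdhb, 0.1154 for Uqcrc1, 0.3145 for Uqcrfs1, 0.1959 for Cyc1, 0.0152 for Cox4i1, 0.2107 for Cox5a, 0.0621 for Cox8a and 0.1749 for Cox8b. The adipocyte score gave 0.0993 for Uqcrfs1, 0.0219 for Cyc1, 0.0004 for Cox5a and 0.0027 for Cox8a. In HB the brown score gave 0.0576 for Ndufs1, 0.0119 for Sdhb, 0.2483 for Uqcrfs1, 0.0666 for Cyc1, 0.3201 for Cox5a, 0.0312 for Cox8a and 0.3018 for Cox8b, and in HS 0.1719 for Cox8b. The cause of these changes was not tested. With 3 libraries in HB and in HS, a covariate takes 1 of few degrees of freedom. The brown adipocyte score also shared no range between untreated VEDS and either HB or HS. No paired analysis was possible because the labels give no replicate numbers; those used here follow accession order and only name libraries. Per the study's methods, RNA was extracted in batches that each held 1 aorta per study group. Those groups of 3 mice keep the ages apart, unlike the pooled groups used here. The labels do not tell the batches apart per library, so they could not enter a fit.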

Other observations

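Genes next to the respiratory chain were read from fixed lists in the same fits. In edgeR an unadjusted p under 0.05 was held by 394 of all 12976 genes tested in untreated VEDS against control. With hydralazine in VEDS it was held by 589 of 13006, and against untreated VEDS by 2165 of 13204 in HB and 1468 of 13276 in HS. In the same order edgeR called 0, 0, 54 and 41 of all genes and DESeq2 0, 2, 564 and 295. These counts are the background for the lists below. Enzymes of the tricarboxylic acid cycle, which feeds the chain with NADH and succinate, ran with the subunits: all 14 were higher in untreated VEDS than in control (median log2 fold change 0.31), 13 of 14 lower with hydralazine in VEDS (-0.25), and all 14 lower in HB (-0.56) and HS (-0.58) against untreated VEDS. In these comparisons edgeR called 0 of 14 each time and DESeq2 0, 0, 9 and 10, and 7, 3, 11 and 12 of the enzymes had an unadjusted p under 0.05. The smallest adjusted p in HB was that of Idh3b, a subunit of isocitrate dehydrogenase (-0.67 ± 0.13, adjusted p = 0.061 in edgeR). ATP synthase subunits were lower in 17 of 18 genes in HB (median -0.31) and 18 of 18 in HS (-0.39), with 0 called by edgeR and 5 by DESeq2 in each, and 12 and 14 at an unadjusted p under 0.05. Assembly factors, which build the complexes and are not part of them, had medians of -0.22 and -0.23 over 42 genes, with 0 called by edgeR in either, 0 and 1 by DESeq2, and 12 and 6 at an unadjusted p under 0.05. Outer membrane and import proteins had medians of -0.25 in HB and -0.12 in HS over 13 genes. edgeR called 0 and 1 of them, DESeq2 1 in each, and 4 in each had an unadjusted p under 0.05. Timm44 of this list, which tethers the import motor to the inner membrane, was the sole gene called by edgeR in these lists. It fell in HS by 0.46 on the log2 scale (adjusted p = 0.044).

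Other nuclear subunits of the chain, 16 genes tested, had medians of 0.15 in untreated VEDS against control, -0.15 with hydralazine in VEDS, -0.39 in HB and -0.34 in HS. edgeR called 0 in each, DESeq2 called 0, 0, 8 and 4, and 1, 1, 12 and 11 had an unadjusted p under 0.05. Cox7a1, the heart, muscle and brown fat isoform of COX subunit 7a, was at 18.0 to 51.7 CPM in untreated VEDS, 3.23 to 18.1 CPM in HB and 3.87 to 13.4 CPM in HS (log2 fold changes -1.62 ± 0.48 and -1.86 ± 0.42). Its broadly expressed counterpart Cox7a2 was at -0.26 ± 0.10 and -0.34 ± 0.11. Over 30 libraries Cox7a1 had r = 0.95 with Ucp1, the same as Cox8b. The muscle isoform Cox6a2 reached 7.61 CPM in a hydralazine control and 7.82 CPM in an HB library, and 1.23 CPM or less elsewhere. The lung isoform Cox4i2 stayed between 0.474 and 3.42 CPM.

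Regulators of respiratory genes were mixed. Of 14 tested, edgeR called 0 in HB and 0 in HS, DESeq2 called 1 and 0, and 3 in each had an unadjusted p under 0.05. The last count stands against 2165 of 13204 genes tested in HB and 1468 of 13276 in HS. The gene called in HB, named after its values were seen, was Ppara, a fatty acid receptor (-1.17, adjusted p = 0.0121 in DESeq2). Ppargc1b, a coactivator of mitochondrial genes, was at 27.9 to 43.0 CPM in untreated VEDS and 15.5 to 26.2 CPM in hydralazine VEDS, so these groups did not overlap (log2 fold change -0.74 ± 0.15, adjusted p = 1.00 in edgeR and 0.0228 in DESeq2, which called it and Ndufv3 alone in that comparison). Ppargc1a was at -0.48 ± 0.24 in that comparison. Of all genes, 0.133% were lower in every hydralazine VEDS library than in every untreated VEDS library. Ppargc1b in control libraries spanned 14.1 to 33.9 CPM untreated and 18.1 to 42.9 CPM with hydralazine, overlapping both VEDS ranges. Esrra, an estrogen-related receptor, was at 0.36 ± 0.10 in untreated VEDS against control and -0.43 ± 0.13 in HS against untreated VEDS. Neither tool called Esrra in either comparison, and its adjusted p in HS was 0.21 in DESeq2. Nrf1 and Tfam lay between -0.24 and 0.26 in untreated VEDS against control and in the 3 comparisons of treated with untreated VEDS.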
